A study of Cucumis melo with 62 samples.

Results

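The genes described here are 50 melon (Cucumis melo) gene IDs whose transcript level in fruit was highest at California among 6 growing environments. For each gene the F39 and TTDV group means were averaged within an environment, and 2199 of the 29980 gene IDs had their highest value at California. The members are the 50 of these 2199 genes with the widest margin over the second-highest environment. The members were thus chosen by the deposited values of the F39 and TTDV libraries in these environments, and their levels at California against the other 5 environments are described below with no test.

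F39 and TTDV are melon cultivars, and all samples carry the genotype label WT. Both were grown at California, Georgia, North Carolina, Arizona and Uvalde in 2019 and at Uvalde in 2018, and TTDV also at Indiana in 2019. The sample titles write this last place as Indiana(TX), and it is taken here as Indiana. Each of these 13 groups has 3 libraries, except TTDV Georgia with 2. A further 24 libraries, 3 each, come from the cultivars PRIMO, CRUSER, OC164, Infinite Gold, HD150 and HD252, and TH-5 and TH-6, grown at Weslaco in 2019. All are fruit picked about 45 days after flowering. The labels do not say whether the libraries of a group were separate plants, and a p-value therefore covers only the spread among the sequenced samples, which may be technical. They name neither weather nor soil for any field, so an environment here stands for everything that differed between places and seasons.

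Melon fruit gains sugar, pigment and aroma and loses firmness as it ripens, and in many cultivars ethylene drives part of this change. Growing the same cultivars in several fields is a common way to ask how the surroundings of a plant, beside its genotype, bear on its fruit. The deposited tables pair no ID with a product, and the reference gene table matched none of them, so the members are given by ID with no function. In RNA from whole fruit tissue, fewer cells of a type and less RNA per cell cannot be told apart.

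The 6 California libraries held 12151662 to 22067288 reads, within the 6251302 to 31333150 reads of all 38 F39 and TTDV libraries. Each California library was most like a library of its own group, as were 29 of the 38 libraries. The cultivar labels could be set beside MELO3C016167.2, a gene far apart between the cultivars. It had 31.4 to 38.3 reads in TTDV and 7795 to 20117 in F39 at California, and 25.3 to 648 in TTDV and 14045 to 30888 in F39 in 4 other environments. At Uvalde 2019 the sides were swapped, with 7521 to 20690 reads in the libraries labelled TTDV and 492 to 1045 in those labelled F39. Uvalde 2019 is therefore written "as labelled", and it is left out of the cultivar differences tested. Its libraries still entered the filter and the estimate of the spread in those tests. The average of both cultivars that the rule uses is the same whichever way these labels are read. In a second such gene, MELO3C024745.2, F39 Georgia replicates 2 and 3 also stood apart from the other F39 libraries, with up to 526 reads against a median of 4.73 over the 12 F39 libraries.

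The margins were unequal. Values are on the deposited log2-like scale, on which a doubling moves a gene by 0.40 from 10 reads, 0.81 from 100 reads and 0.97 from 1000 reads. The margin ran from 4.04 down to 0.45, with a median of 0.56. Levels are given as normalised reads, that is reads recovered from the deposited values and divided by the library's size factor, and are not corrected for gene length. Mean levels at California ran from 5.57 to 14998 reads, with a median of 267. At California 12 members averaged 1000 reads or more and 3 averaged under 10. In 19 members the California mean was at least 2 times that of the second environment in reads. In 4 members another environment had the higher mean in reads, because 1 library with very many reads weighs more there than on the log2-like scale.

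The last member, MELO3C021100.2, had a margin of 0.45, with 528 reads at California and 359 at Arizona. The first gene outside, MELO3C005758.2, had a margin of 0.45 as well, with 41 reads at California and 18.3 at Uvalde 2018. The limit of 50 therefore divides genes with almost the same margin.

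**Figure D1:**
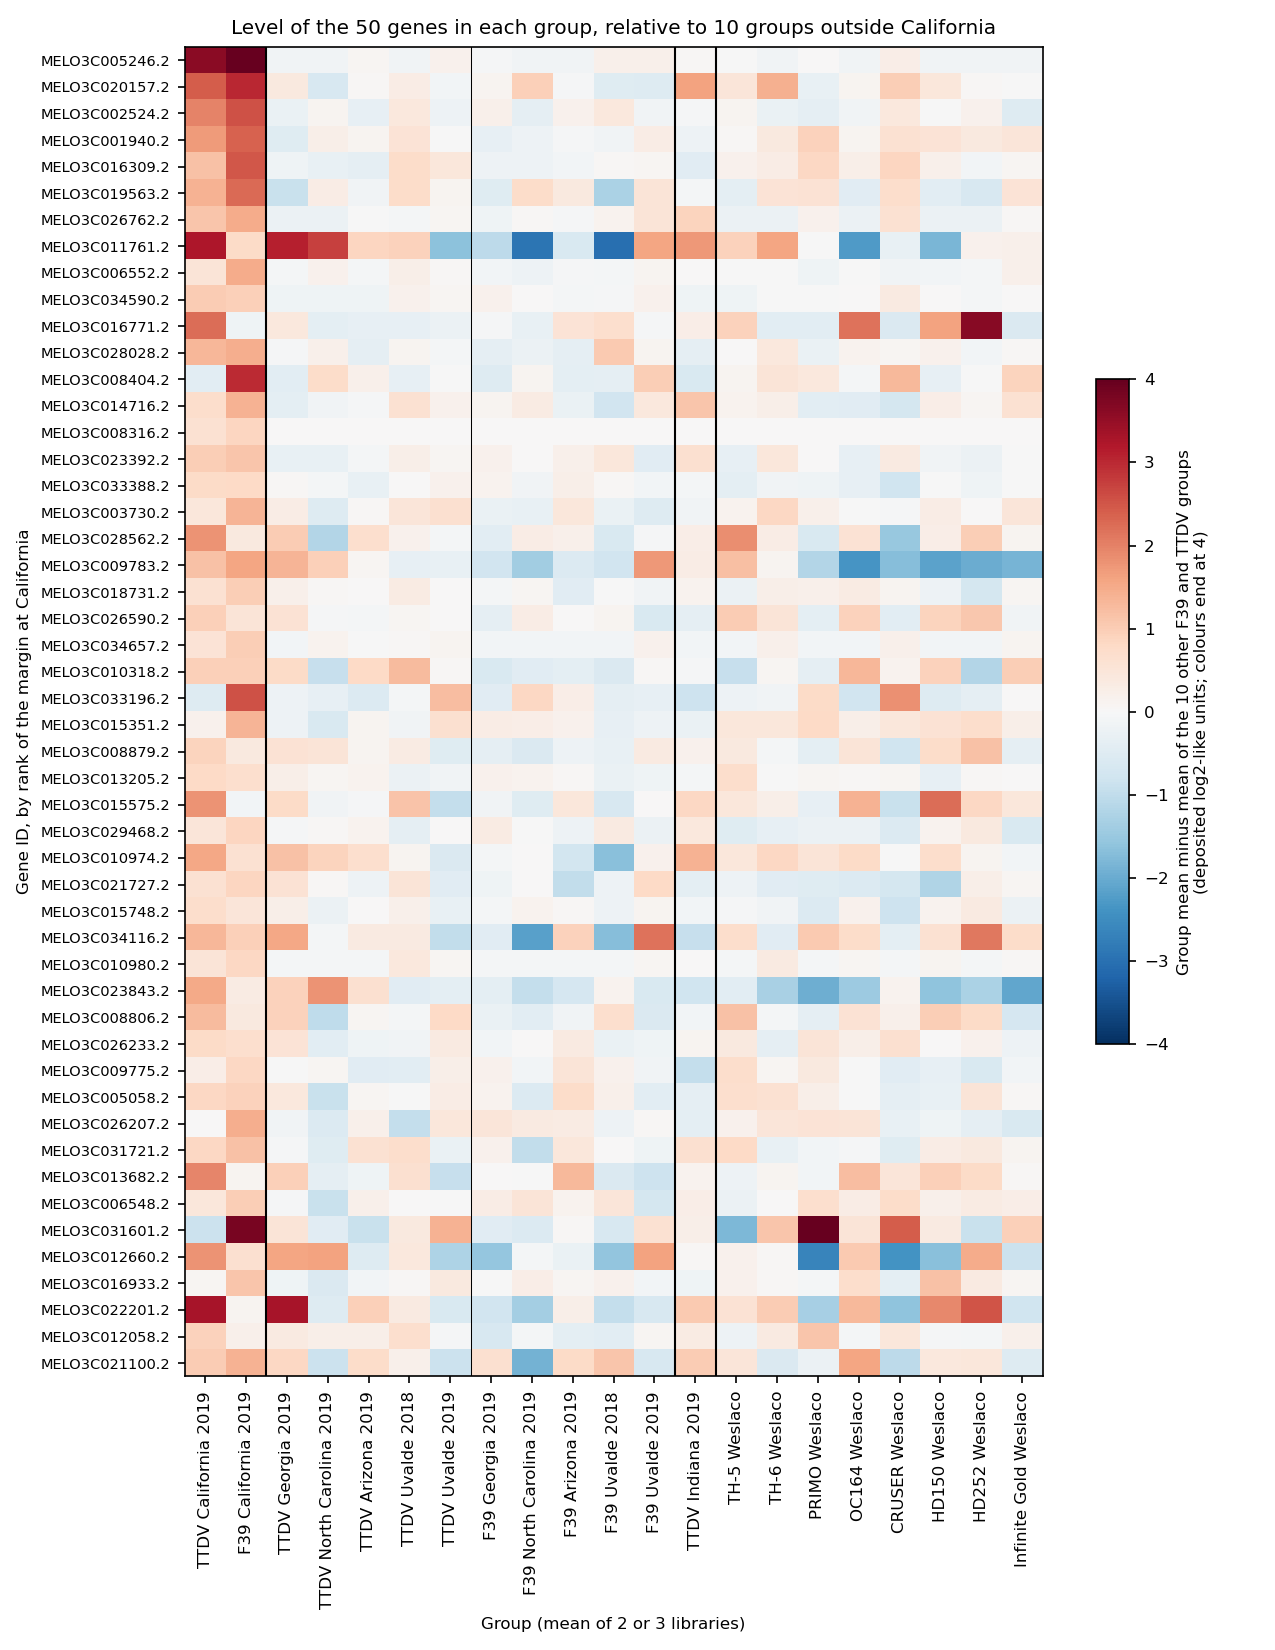
Mean level of the 50 members (rows, by margin) in 21 groups (columns), as the difference from the mean of the 10 F39 and TTDV groups outside California, in deposited log2-like units. The 2 California columns stand at the left, and red fills both for most members, whereas in some rows it fills 1 cultivar only, and red cells recur at Indiana and Weslaco for single genes.

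The second-highest environment was Georgia for 16 members, Uvalde 2019 for 12, Uvalde 2018 for 11, Arizona for 8 and North Carolina for 3. Over all 2199 genes highest at California the shares were 27.7%, 21.6%, 16.1%, 21.1% and 13.6% in the same order. Georgia thus followed California most often among the members and among all such genes.

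California stood clear of every other library in 6 members. In these the lowest of the 6 California libraries lay above the highest of the 29 libraries of F39 and TTDV from the other 5 environments. Of the genes tested, 0.0288% met this, which is 5 of 17383, and all 5 are members. The sixth, MELO3C008316.2, was too weakly read to enter the tests. All 6 were highest at California in both cultivars. The rule favours such genes, so nothing is read from these shares.

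MELO3C005246.2 had the widest margin, 4.04. It had 163, 341 and 160 reads in TTDV and 837, 372 and 509 reads in F39 at California. In the 29 other libraries it had at most 10.1 reads, and 22 of them had 0, where a count of 0 allows up to 3 reads. The gene was therefore read well at California and hardly at all elsewhere, with a California mean 169 times that of Uvalde 2019, the second environment. Indiana gave 0, 0 and 2.15 reads, and the 24 Weslaco libraries gave at most 4.49, with 20 at 0.

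MELO3C020157.2 came second, with a margin of 2.47. Its California levels were 928, 1641 and 910 reads in TTDV and 1610, 1653 and 1835 in F39. The 29 other libraries ran from 25.8 to 510 reads, with a median of 190. This gene was read in every library, and California was a step up from a lasting lower level.

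Of the other 4, MELO3C008316.2 is named for its low level and the rest were picked after their values were seen. MELO3C002524.2 had 128, 244 and 123 reads in TTDV and 247, 224 and 283 in F39 at California, and at most 59.3 in the 29 other libraries, in F39 Georgia replicate 1. MELO3C001940.2 had 34.1, 85.2 and 39.2 reads in TTDV and 90.1, 90.6 and 112 in F39 at California, and at most 30.2 in the 29 others. In both genes TTDV replicates 1 and 3 lay below replicate 2 and below all 3 F39 libraries.

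MELO3C034590.2 was weakly read, with 7.38, 20.9 and 12.7 reads in TTDV and 13.6, 6.57 and 15.3 in F39 at California, and at most 3.93 in the 29 others. MELO3C008316.2 had 2.77, 7.22 and 1.06 reads in TTDV and 1.43, 8.77 and 12.8 in F39. These rest on 48 reads before normalisation, and the 29 other libraries, the 3 Indiana libraries and the 24 Weslaco libraries had none. The gene was thus seen in 6 of 6 California libraries and in no other library of the study, at levels close to the limit of 3 reads that a count of 0 allows.

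**Figure D2:**
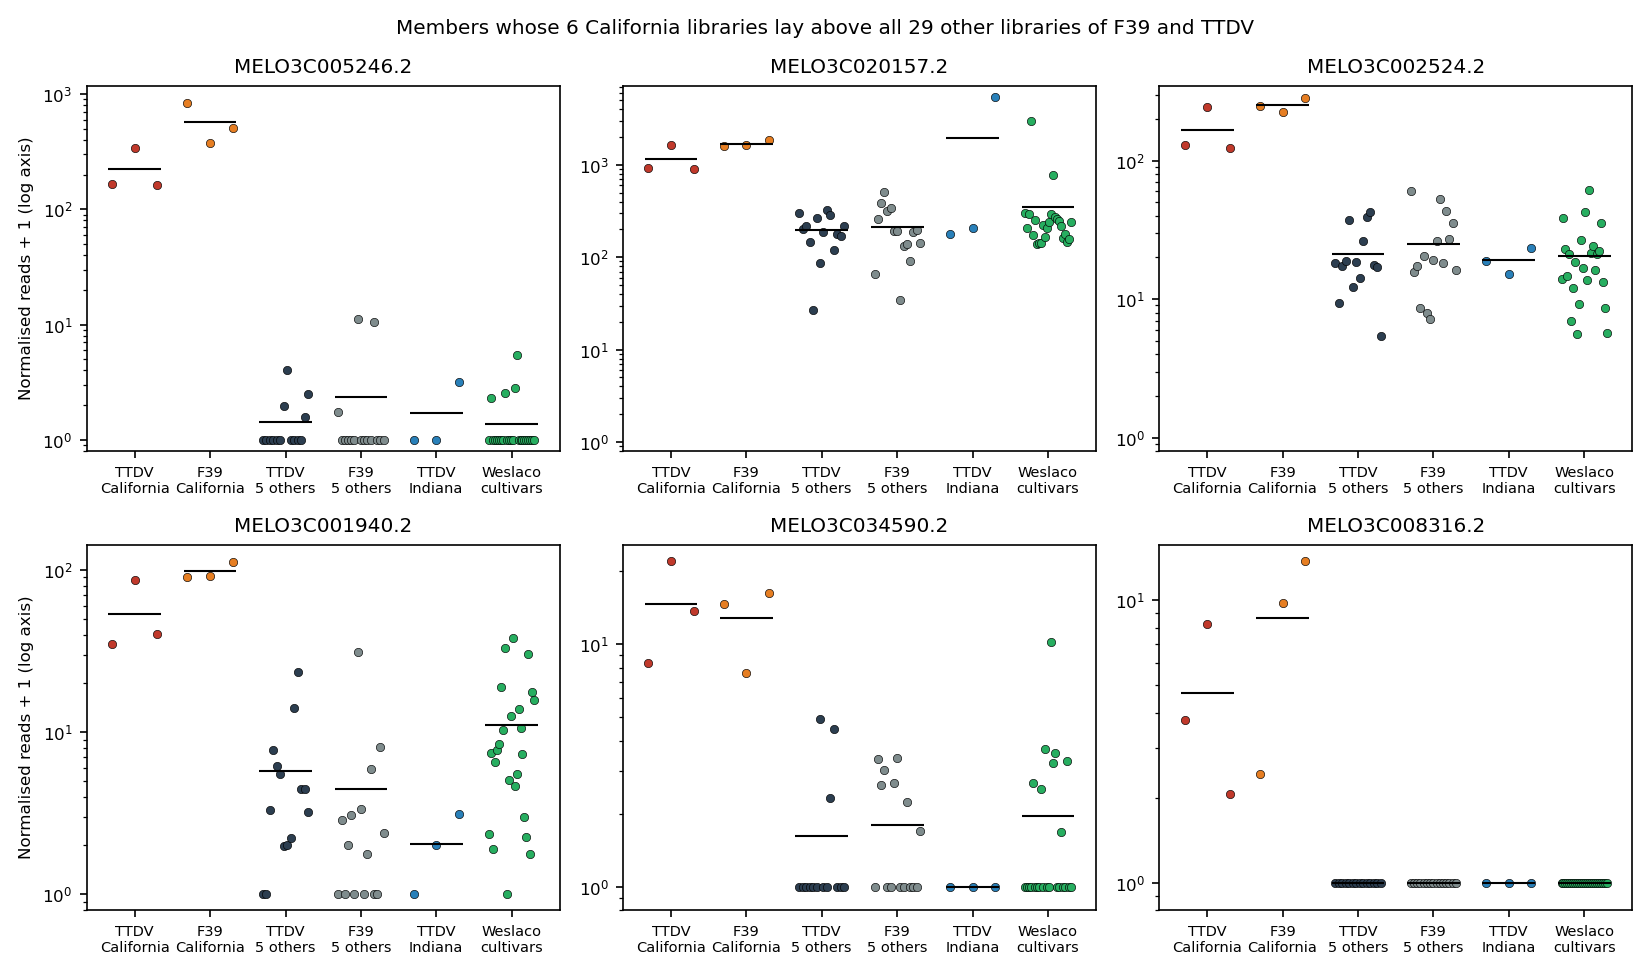
Normalised reads plus 1 (log axis) in every library for the 6 members whose California libraries lay above the 29 other F39 and TTDV libraries. Points are libraries and bars are means. The California points stand highest in all panels among F39 and TTDV outside Indiana, and the exceptions beside them are 1 Indiana and 1 Weslaco point of MELO3C020157.2 above the California range.

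The other members overlapped with other environments. In 12 members no California library exceeded all 29 others, in 12 it was 1 library, in 8 it was 2, in 6 it was 3, in 2 it was 4 and in 4 it was 5. California was thus the highest environment on average for these 44 members, without every fruit sample being the highest. Up to the account of Indiana and Weslaco, "elsewhere" and "other libraries" mean these 29 libraries of F39 and TTDV.

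By cultivar, 32 members were highest at California in both F39 and TTDV, 7 in TTDV alone, 9 in F39 alone and 2 in neither. These classes come from the values that chose the members and are a description. Unlike the average over cultivars, they depend on the Uvalde 2019 labels. Without Uvalde 2019, a check added after the data were seen, 36 were highest in both, 5 in TTDV alone and 9 in F39 alone, and 6 members changed class. MELO3C011761.2, MELO3C012660.2, MELO3C015351.2 and MELO3C016933.2 then joined those highest in both, and MELO3C009783.2 and MELO3C034116.2 those highest in F39 alone.

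Among the 32 shared members, some were clearly lower in most other libraries, and some of these were hardly read there. The genes named in this and the next paragraph were chosen after their values were seen. MELO3C019563.2 had 133, 212 and 105 reads in TTDV and 256, 319 and 305 in F39 at California, and its other libraries reached 116 in TTDV Uvalde 2018 replicate 3. A single California library, TTDV replicate 3, fell inside the range of the others. MELO3C026762.2 had 12, 29.6 and 12.7 reads in TTDV and 23.6, 27.8 and 35.1 in F39, against at most 12.4 in the 29 libraries. MELO3C016309.2 had 29.5, 44.0 and 9.53 reads in TTDV and 81.5, 93.5 and 148 in F39, against at most 48.7 elsewhere. In this gene the 3 F39 libraries stood clear and the 3 TTDV libraries overlapped with Uvalde 2018.

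Others of the 32 were abundant everywhere and only moderately higher at California. MELO3C005058.2 had 1216, 1570 and 1747 reads in TTDV and 1497, 1449 and 1813 in F39 at California, while the other libraries ran up to 1430 in F39 Arizona replicate 2. MELO3C013205.2 had 452, 417 and 368 reads in TTDV and 432, 316 and 389 in F39, and Georgia reached 334 in TTDV and 389 in F39. MELO3C015748.2 had 1293, 1542 and 1290 reads in TTDV and 997, 1134 and 1436 in F39, and F39 Uvalde 2019 replicate 2 as labelled had 1430. The California means of these genes were 1.38, 1.47 and 1.42 times those of the second environment, so their margins came close to the limit of the rule.

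Libraries of a cultivar did not take part evenly. Among the 3 TTDV California libraries, replicate 2 was the highest in 24 of the 50 members, replicate 3 in 17 and replicate 1 in 9. Over all genes tested the shares were 29.5%, 38.6% and 32% in that order. Among the 32 members shared by both cultivars, TTDV replicate 2 was the highest in 19. Of the 3 F39 California libraries, replicate 1 was the highest in 25 members, replicate 3 in 19 and replicate 2 in 6, against 38%, 33.8% and 28.1% of all genes tested. In the 32 shared members F39 replicate 3 was the highest in 17, replicate 1 in 12 and replicate 2 in 3. Which F39 library was the highest most often thus differed between the 50 members and the 32 shared ones. The part of single libraries in the choice of members is given by leaving each out. Without F39 California replicate 1 the rule returned 32 of the 50, without any other California library 37 to 43, and without any library from elsewhere 39 to 49. In all 35 such repeats, 19 of the 50 members were returned.

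In 9 members, at least 50% of the summed California reads came from 1 library. That library was F39 replicate 1 in 6 of them and TTDV replicate 3 in the other 3. MELO3C033196.2 had the highest such share, 71.9%, with 3190 reads in F39 replicate 1, 464 and 524 in the other F39 libraries, and 51.6, 100 and 108 in TTDV. MELO3C009783.2 followed with 70.2%, from 2371 reads in F39 replicate 1. Its other F39 California libraries had 205 and 57.4 reads, and TTDV had 207, 278 and 261. For this gene 2 libraries elsewhere were higher still, TTDV North Carolina replicate 3 with 3993 reads and F39 Uvalde 2019 replicate 3 as labelled with 2689. Its California mean of 563 reads was 0.98 times that of Uvalde 2019.

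The 9 members highest at California in F39 alone include the most abundant genes. MELO3C003730.2, the highest of all members, had 9676, 10068 and 11463 reads in TTDV and 16374, 23064 and 19342 in F39 at California. The F39 libraries lay above all but 1 of the other libraries, while the TTDV libraries lay within their range. The exception was TTDV Uvalde 2019 replicate 2 as labelled, with 70360 reads. MELO3C031601.2, the second in abundance, had 512, 602 and 444 reads in TTDV and 23632, 9962 and 11701 in F39. Its highest levels elsewhere in these cultivars were 21969 in TTDV Uvalde 2019 replicate 2 as labelled and 7832 in F39 Georgia replicate 2. MELO3C008404.2 had 11.1, 4.33 and 2.12 reads in TTDV and 1291, 538 and 15.3 in F39, so 2 F39 libraries carried it. MELO3C015351.2, chosen after its values were seen, was even across F39, with 642, 495 and 474 reads against 327 at most elsewhere, and its TTDV libraries had 177, 227 and 235.

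The 7 members highest at California in TTDV alone were as mixed. MELO3C016771.2 had 31.4, 116 and 185 reads in TTDV and 0, 2.19 and 5.10 in F39 at California, and the other environments reached 54 in F39 Uvalde 2018 replicate 3. MELO3C022201.2 had 555, 538 and 770 reads in TTDV and 57.2, 32.9 and 32.5 in F39 at California. TTDV Georgia had 587 and 623 reads of it, so California and Georgia overlapped. MELO3C011761.2 had 3201, 2895 and 9899 reads in TTDV and 1002, 611 and 755 in F39 at California. TTDV Georgia (2815 and 5987) and North Carolina replicate 3 (12110) overlapped with these. F39 Uvalde 2019 replicate 3 as labelled had 13420.5 reads of MELO3C011761.2, more than any California library. The gene's F39 margin was -0.84 with Uvalde 2019 as labelled and 1.36 without it. MELO3C008806.2 had 8657, 10967 and 9962 reads in TTDV and 7846, 3520 and 5474 in F39, and libraries from elsewhere reached 11286 in F39 Georgia replicate 3.

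The 2 members highest at California in neither cultivar entered through their average alone, with Uvalde 2019 as labelled. They were MELO3C009783.2, described above, and MELO3C034116.2, named after its values were seen. MELO3C034116.2 had 867, 824 and 500 reads in TTDV and 1612, 297 and 312 in F39 at California, and 3862 in TTDV North Carolina replicate 3 and 6007 in F39 Uvalde 2019 replicate 3 as labelled. These libraries from different groups also stood high together in MELO3C009783.2.

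**Figure D3:**
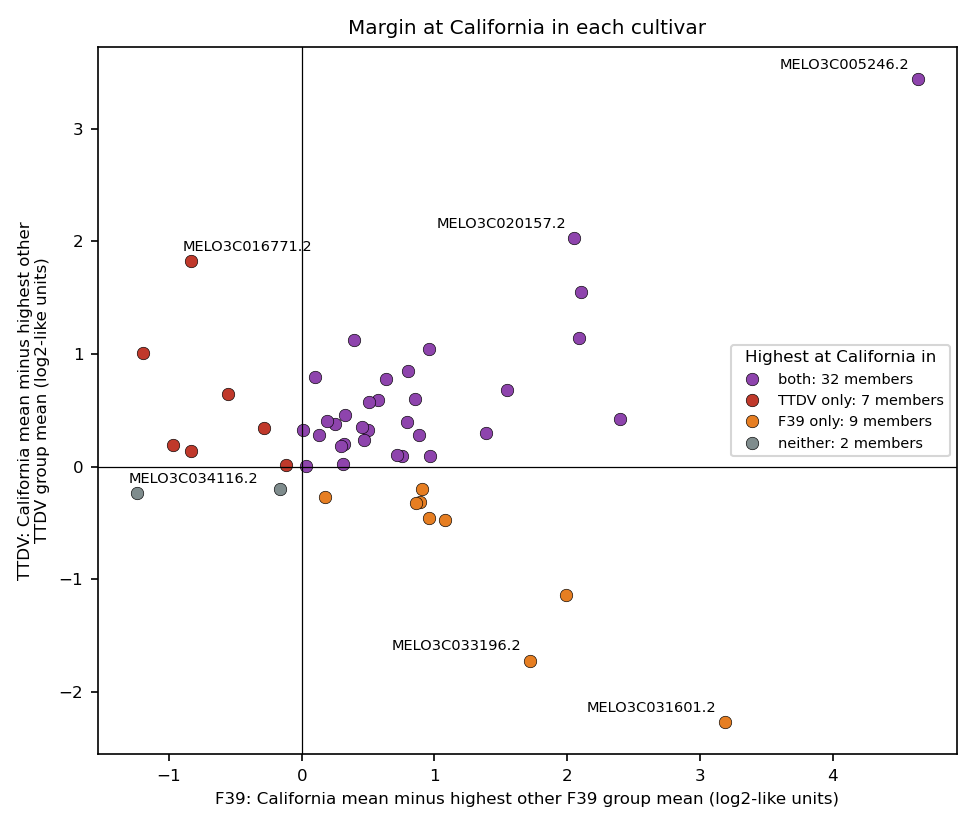
Margin at California in TTDV (vertical) against that in F39 (horizontal) for the 50 members, each the California group mean minus the highest other group mean of the cultivar, in log2-like units, coloured by class. The 32 members highest in both lie in the upper right, MELO3C005246.2 lies farthest out with 3.44 in TTDV and 4.64 in F39, and MELO3C031601.2 lies at -2.27 in TTDV and 3.19 in F39. Uvalde 2019 enters as labelled, and without it MELO3C031601.2 lies at -1.39 in TTDV and 3.75 in F39.

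Whether the cultivars differed from each other at California is a question that the averaging in the rule did not fix, although a gene high in 1 cultivar can still enter by its mean. It was tested with limma over all 38 libraries, with p-values adjusted by Benjamini-Hochberg over 17383 genes and a threshold of 0.05. A filter on low values kept 47 of the 50 members. Of these, 12 differed between TTDV and F39 at California, 5 higher and 7 lower in TTDV. The 7 include MELO3C006552.2, which passed the filter through the F39 California libraries alone. MELO3C005246.2 and MELO3C016309.2, also among the 7, passed it only with California libraries counted. Over all genes tested, 16.8% were called, 9.69% higher and 7.11% lower in TTDV. The median difference, TTDV minus F39, was -0.25 over the members tested and -0.02 over all genes.

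Among the members called, the largest falls in TTDV were in MELO3C031601.2 and MELO3C008404.2, whose reads are given above. For MELO3C031601.2 TTDV minus F39 was -4.67 ± 1.2 (SE, limma adjusted p = 0.00743), and the 3 TTDV libraries lay below the 3 F39 libraries. MELO3C008404.2 differed by -3.39 ± 0.82 (SE, limma adjusted p = 0.00498), again with no overlap. Without F39 replicate 1 this call was lost, with -2.37 and an adjusted p of 0.0702, and so it was with voom (adjusted p = 0.0681).

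Among the members called, the largest rises in TTDV were in MELO3C022201.2, by 3.18 ± 0.57 (SE, limma adjusted p = 0.000337), and in MELO3C016771.2, by 2.39 ± 0.43 (SE, limma adjusted p = 0.000368). In both, all 3 TTDV libraries lay above all 3 F39 libraries, and no omitted library ended the call. The smallest adjusted p among the members, 0.000280 by limma, was that of MELO3C033196.2, which fell by 3.05 on the log2-like scale in TTDV.

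Of the members highest at California in both cultivars, 3 were called lower in TTDV and 1 higher. The 3 lower ones were MELO3C005246.2, MELO3C016309.2 and MELO3C006552.2, at -1.25, -1.33 and -0.97. MELO3C006552.2 had 4.61, 8.66 and 5.30 reads in TTDV and 88.7, 18.3 and 14 in F39 at California, and lost its call without TTDV replicate 1 (adjusted p = 0.0809) or replicate 3 (0.0806) in limma. MELO3C006552.2 also lost it with voom (adjusted p = 0.0954) and in a fit of the compared groups only (0.0926). MELO3C016309.2 lost it without TTDV replicate 3 (limma adjusted p = 0.0598). The higher one, MELO3C028562.2, had 202, 203 and 207 reads in TTDV and 68.6, 59.2 and 44.6 in F39, so TTDV minus F39 was 1.42 ± 0.35 (SE, limma adjusted p = 0.00525). The other 25 tested members of that class were not called.

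Of the members highest in F39 alone, 4 of 9 were called lower in TTDV at California, and of those highest in TTDV alone, 4 of 7 were called higher. Class and test share the California libraries, so these counts describe the members and add no independent evidence. The remaining 2 calls higher in TTDV were MELO3C015575.2 (434, 421 and 159 reads in TTDV, 62.9, 54.1 and 67 in F39) and MELO3C013682.2 (245, 93.1 and 635 in TTDV, 58.6, 68.7 and 24.9 in F39). Their differences were 1.88 ± 0.52 and 1.85 ± 0.59 (SE, limma adjusted p = 0.0130 and 0.0289). The first lost its call without TTDV replicate 1 (limma adjusted p = 0.0637) or 2 (0.0627), and the second without any California library other than TTDV replicate 2, with a limma adjusted p of up to 0.219 without TTDV replicate 3.

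The same cultivar difference was averaged over Georgia, North Carolina and Arizona 2019 and Uvalde 2018. Here 7 of the 47 members were called, 6 higher and 1 lower in TTDV, against 12.1% of all genes tested, 6.06% in each direction. The median difference was 0.09 over the members and 0.02 over all genes. MELO3C011761.2 differed most, by 3.79 ± 0.55 (SE, limma adjusted p = 1.44e-05). In these 4 environments it ran from 407 to 12110 reads in TTDV and from 12.3 to 1085 in F39, so the ranges overlapped. MELO3C022201.2 ran from 5.16 to 623 reads in TTDV and from 0 to 65 in F39 there, with overlap. It was higher in TTDV by 1.73 ± 0.29 (SE, limma adjusted p = 0.000135), and was the member called both at California and elsewhere. The 1 lower member was MELO3C006548.2, with 29.2 to 147 reads in TTDV and 79.8 to 190 in F39, again with overlap. It differed by -0.54 ± 0.15 (SE, limma adjusted p = 0.0182), and it lost its call without TTDV Georgia replicate 1 (limma adjusted p = 0.0763), without F39 Georgia replicates 2 and 3 (0.0936) and with Uvalde 2019 as labelled added, at -0.30 (0.229).

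Whether the cultivar difference at California differed from that in the 4 other environments was tested as the difference between the 2 contrasts. It passed in 7 of the 47 members, 1 positive and 6 negative, against 8.5% of all genes tested, 5.4% positive and 3.09% negative. The 6 include MELO3C006552.2, tested only because its F39 California libraries were high. MELO3C005246.2 and MELO3C016309.2, also among the 6, passed the filter only with California libraries counted. The median was -0.44 over the members and -0.04 over all genes. All 7 were also called at California and none in the 4 other environments. The California difference is part of this contrast, which favours such an overlap, and the overlap was not counted over all genes. The contrast also uses the libraries that chose the members, and a gene high in 1 cultivar at California can enter by its mean. The 7 calls therefore describe the members and add no independent evidence.

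The 1 positive member was MELO3C016771.2, at 2.76 ± 0.49 (SE, limma adjusted p = 0.00136). Elsewhere its reads were at most 16.8 in TTDV and 54 in F39, so its higher level in TTDV was seen at California. The most negative was MELO3C031601.2, at -4.96 ± 1.35 (SE, limma adjusted p = 0.0213), followed by MELO3C008404.2, at -3.73 ± 0.93 (SE, limma adjusted p = 0.0133). Both were higher in F39 at California, and the cultivars overlapped in the other environments. MELO3C005246.2 gave -1.19 ± 0.33 (SE, limma adjusted p = 0.0237). In the 4 other environments this gene had at most 9.58 reads in a library and a cultivar difference of -0.05. A cultivar difference could hardly show there, and the value mostly repeats the California difference of -1.25.

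These calls rest on few libraries. Leaving out F39 California replicate 1 or TTDV California replicate 3 reduced the 7 to 2, and leaving out F39 California replicate 2 reduced them to 4. Over all genes the same omissions reduced the 1477 calls to 522, 496 and 531. MELO3C031601.2 then had adjusted p-values of 0.0876, 0.0695 and 0.0520 in that order by limma, with differences between -4.58 and -5.2. For MELO3C008404.2 they were 0.100, 0.0519 and 0.0675 by limma. With voom 3 of the 7 were called, and MELO3C005246.2, MELO3C006552.2, MELO3C008404.2 and MELO3C016309.2 lost their calls. MELO3C006552.2 passed the filter through the F39 California libraries alone. Without F39 California replicate 1 or 2 it was therefore not tested, and it is missing from the calls left. MELO3C016771.2 kept its call under every omission, with an adjusted p of at most 0.0133 in limma.

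**Figure D4:**
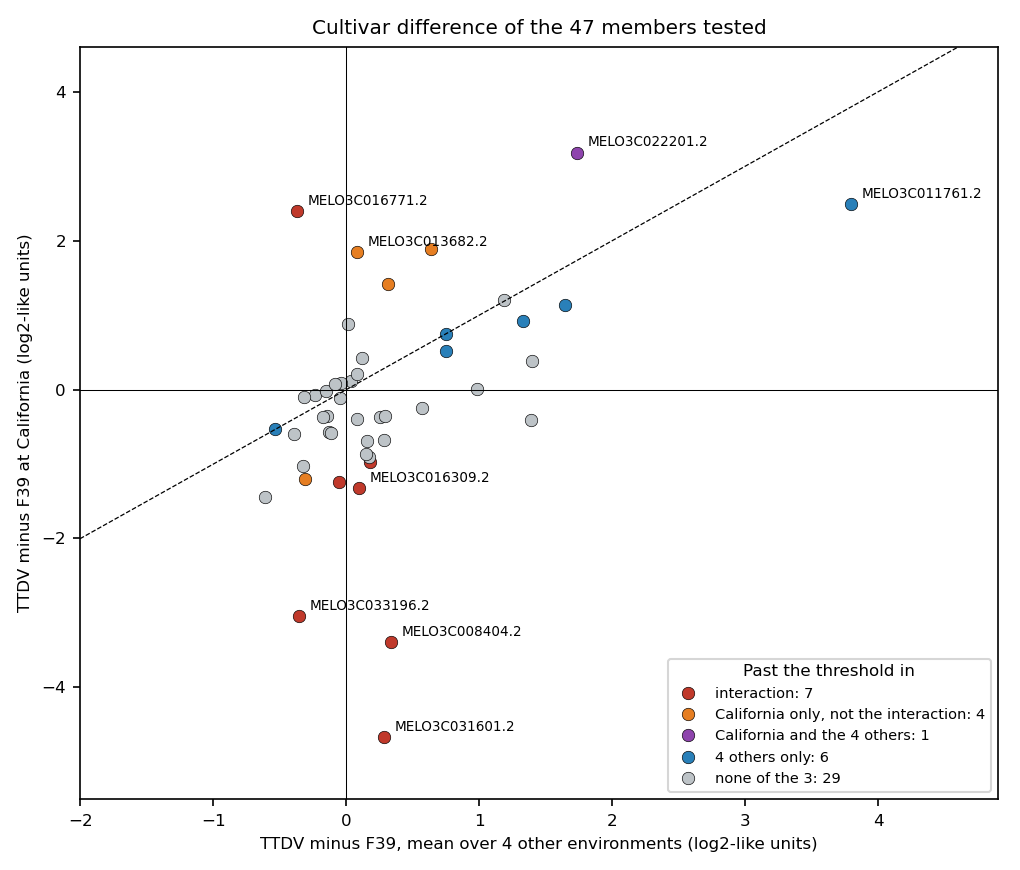
TTDV minus F39 at California (vertical) against the mean of the same difference over 4 other environments (horizontal), in log2-like units, for the 47 members tested, coloured by the test they passed. The dashed line marks equal differences. The 7 members past the test of the difference lie off the line, MELO3C016771.2 above it and 6 below, and MELO3C022201.2 is high on both axes.

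Indiana gave TTDV fruit from a place the rule did not use. Its mean was above those of the 5 other TTDV environments outside California in 8 of 50 members, against 8.47% of all genes tested. The 8 include MELO3C020157.2, MELO3C026762.2, MELO3C014716.2 and MELO3C023392.2, in which 1 Indiana library alone was high, as given below. Here and below, the TTDV environments and libraries set beside Indiana include Uvalde 2019 as labelled, so these counts and shares depend on its labels. The Indiana mean was above the TTDV California mean in 3 of 50, against 51.1% of all genes, a difference that the choice of genes high at California favours. In no member did all 3 Indiana libraries lie above the 14 TTDV libraries from outside California, and this held for 0.155% of all genes tested. MELO3C010974.2, named after its values were seen, had 2 such libraries, with 649, 1306 and 1394 reads at Indiana and at most 1140 in those 14 libraries.

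Of the 3 Indiana libraries, 1 differed from its fellows. Replicate 3 was the highest Indiana library in 23 of 50 members, against 29.9% of all genes tested, and exceeded all 14 TTDV libraries from outside California in 6, against 2.33%. For replicates 1 and 2 such an excess occurred in 2 and 1 members, against 8.53% and 2.32% of all genes. MELO3C020157.2 had 178, 204 and 5470 reads in the 3 Indiana libraries, so replicate 3 was above every California library. MELO3C014716.2 had 140, 130 and 1068 reads, against 211, 251 and 156 in TTDV California. MELO3C026762.2 had 0, 1.02 and 115 reads, and MELO3C023392.2 had 0, 4.06 and 83.8, both chosen after their values were seen. In these 4 genes 1 sample stood above all California libraries while its 2 fellows stayed at the level of the other environments. Replicate 3 held 17815400 reads and was most like Indiana replicate 2 over all genes (r = 0.984 across genes), and no label sets it apart.

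MELO3C031601.2 was also higher at Indiana than in TTDV California, with 686, 1829 and 1227 reads against 512, 602 and 444, although far below its F39 California level. MELO3C005246.2 had no more than 2.15 reads at Indiana.

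At Weslaco 8 further cultivars shared 1 field, and the level could be set beside California because both tables carry 1 common normalisation. No Weslaco library entered the rule. In 6 of 50 members all 24 Weslaco libraries lay below the lowest California library, MELO3C005246.2 and MELO3C008316.2 among them. In 20 of 50, at least 1 Weslaco cultivar had a higher mean than California on the deposited log2-like scale. Neither count was made over all genes, and the choice of genes high at California bears on both, so nothing is read from them. MELO3C008316.2 was the 1 member with no read at Weslaco. The members thus ranged from absent to more abundant at Weslaco than at California.

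The 8 cultivars differed in 28 of the 43 members that passed the filter at Weslaco, by limma's F test adjusted over 17131 genes, against 58% of all genes tested. The median range between the highest and lowest cultivar was 1.34 over the members and 1.15 over all genes tested, on the deposited scale. The most frequent highest cultivar was HD252 with 9 of 43 members, then CRUSER with 8 and TH-5 with 7, against 17.9%, 15.9% and 11.5% of all genes tested. Over all genes PRIMO was the most frequent, with 18.6%, and it was the highest in 5 of the 43 members. CRUSER was also the lowest in 14 of 43, against 18.0% of all genes. Its libraries held 4041908, 7806433 and 7086348 reads, the 3 lowest totals at Weslaco. Whether depth bears on these counts was not tested.

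MELO3C008806.2 had the smallest p, with a range of 1.84 (limma F test, adjusted p = 3.11e-06). TH-5 was highest with 9051, 7446 and 10948 reads, HD150 had 8952, 7159 and 8179, and Infinite Gold was lowest with 1918, 2622 and 3085. TH-5 thus reached the level of TTDV at California. MELO3C009783.2 came next with a range of 3.57 (limma F test, adjusted p = 6.78e-06). TH-5 had 175, 296 and 326 reads and TH-6 had 141, 116 and 60, while OC164 had 4.91, 0 and 2.89. The 2 cultivars with the TH name stood above the other 6.

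Of the 12 members called between TTDV and F39 at California, 8 were also called between the Weslaco cultivars, 2 were not (MELO3C015351.2, limma F test, adjusted p = 0.110, and MELO3C016309.2, adjusted p = 0.176) and 2 did not pass the filter there. At Weslaco 58% of all genes tested were called. The overlap of the 2 tests was not counted over all genes, so nothing is read from it. MELO3C031601.2 had 45253, 39244 and 11220 reads in PRIMO and 6002, 3068 and 8511 in CRUSER, against 129, 328 and 362 in TH-5, a range of 6.57 (limma F test, adjusted p = 2.21e-05). PRIMO thus reached or passed the F39 California level. MELO3C022201.2 had 529, 243 and 313 reads in HD252 and 132, 447 and 155 in HD150, and at most 4.64 in PRIMO and CRUSER, a range of 4.15 (limma F test, adjusted p = 2.11e-05). MELO3C016771.2 had 977, 237 and 108 reads in HD252, 1105 in OC164 replicate 2 and 346 in HD150 replicate 2, while CRUSER and Infinite Gold had none. The OC164 and HD150 levels came from single libraries. This gene was called by limma's F test (adjusted p = 0.00880) but not with voom (adjusted p = 0.0877).

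Single libraries also stood out at Weslaco in the genes that were high in 1 Indiana library. MELO3C020157.2 had 2992, 175 and 255 reads in TH-6 and 241, 295 and 773 in CRUSER, while the other 6 cultivars had 138 to 298. MELO3C023392.2 had 59.1, 1.68 and 0 reads in TH-6 and 0, 7.34 and 22.5 in CRUSER. MELO3C026762.2 had 4.64, 1.83 and 18.0 in CRUSER and none in TH-6. TH-6 replicate 1 was thus high in the first pair of genes and CRUSER replicate 3 in all 3, and no label sets these libraries apart. CRUSER replicate 3 held 7086348 reads, a low total, so its levels of MELO3C023392.2 and MELO3C026762.2 rest on few reads. MELO3C014716.2 showed no such single high library, with 106, 172 and 138 reads in TH-6 and 41.8, 91.7 and 49.4 in CRUSER.

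**Figure D5:**
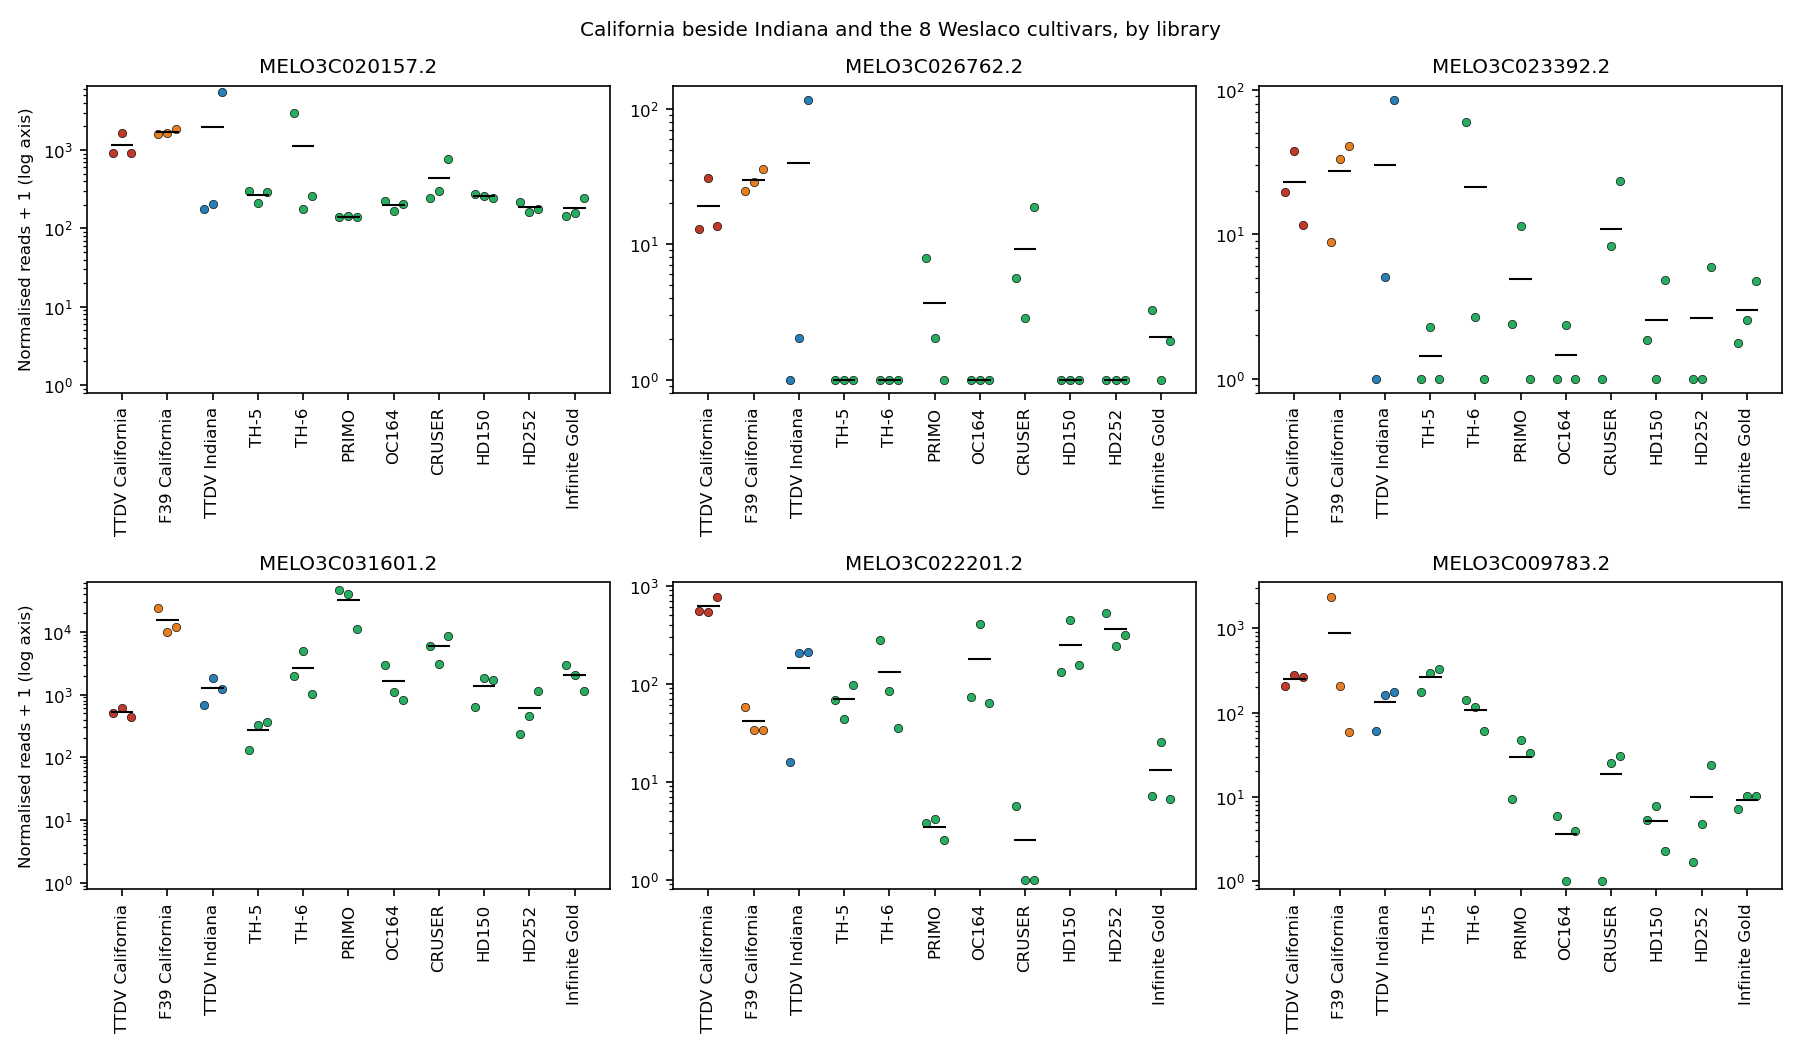
Normalised reads plus 1 (log axis) of 6 members in the libraries of TTDV and F39 California, TTDV Indiana and 8 Weslaco cultivars, with bars at the means. In the upper row 1 Indiana point stands above the California points, joined by 1 TH-6 point in MELO3C020157.2 and MELO3C023392.2. In the lower row whole cultivars differ, with PRIMO high in MELO3C031601.2, HD252 in MELO3C022201.2 and TH-5 in MELO3C009783.2.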

How the data were processed

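RNA sequencing of melon fruit was deposited by the authors as 2 tables of log2-like variance-stabilised values for 29980 gene IDs, made by the authors with DESeq or DESeq2 (no version), per the submitters' processing notes. What aligner, build and annotation they used is not given in the sources used here. Per the labels' protocols, fruit was sampled about 45 days after flowering. Inverting the transform returned whole reads (at least 99.973% of the values of a library within 0.05 of a whole number). It gave totals of 6251302 to 31333150 reads over 38 libraries and 4041908 to 21290476 over the 24 from Weslaco. Size factors computed over all 62 libraries together were 0.961 to 0.976 of those in the values, so both tables share 1 normalisation, and tests stayed within a table. Variance stabilisation compresses low counts, which understates the differences of genes with few reads. Read levels and limits from a count of 0 (3 reads) cover counting error only.

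Groups follow the labels (cultivar, place, year). No batch is given, and replicate numbers only name libraries. The deposited values were tested in R 4.3.3 with limma 3.58.1, fitting each group as its own coefficient, moderation with trend and robust settings, and Benjamini-Hochberg adjustment over all genes of a table with at least 3 libraries 1 unit above the lowest value (about 9.08 reads). This kept 17383 and 17131 genes. Scripts were tested on simulated data. The members, lists, tests and alternatives were chosen with earlier results of these data known.

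IDs were named by rule: for each description or test, at most 2 in each direction, those with the largest margin or difference, the smallest p at Weslaco, the highest share of reads in 1 library, the highest Indiana level and the highest or lowest level at California. All other IDs were chosen after their values were seen. The reference gene table matched none of the IDs, so no product, position or sequence is printed. Alternatives were other filters, quantile normalization, sample weights, moderation without trend, voom on the recovered reads, fits over fewer groups, and leaving out each library.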

Additional observations from a re-analysis of the deposited data

Results flagged for a closer look

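In 7 members the difference between TTDV and F39 at California was called by limma as unlike that in 4 other environments. The contrast uses the libraries that chose the members, and a gene high in 1 cultivar at California can enter by its mean. These calls therefore describe the members and add no independent evidence. The values are TTDV minus F39 at California minus the same difference elsewhere, on the deposited log2-like scale. MELO3C016771.2 was the 1 positive member, at 2.76 (limma adjusted p = 0.00136). MELO3C033196.2 stood at -2.69 (limma adjusted p = 0.00683), and its call was lost without F39 California replicate 1, at -1.82 and an adjusted p of 0.0581. MELO3C008404.2 stood at -3.73 (adjusted p = 0.117 with voom) and MELO3C031601.2 at -4.96. MELO3C016309.2 stood at -1.42 (limma adjusted p = 0.0166), and its call was lost without TTDV California replicate 3, at -1.13 and an adjusted p of 0.102, and with voom (adjusted p = 0.177). MELO3C005246.2 stood at -1.19 and lost its call without F39 California replicate 1 (limma adjusted p = 0.145), TTDV California replicate 1 (0.0841) or replicate 3 (0.107), with the stricter filter (0.0606) and with voom (0.334). MELO3C006552.2 stood at -1.15 (limma adjusted p = 0.0348), and lost its call without any of the 3 TTDV California libraries or without TTDV Georgia replicate 1, with adjusted p-values from 0.0555 to 0.0972, without F39 Georgia replicates 2 and 3 (0.0550) and with voom (0.0864). It passed the filter through the 3 F39 California libraries alone, and without any 1 of them it was not tested. The filter thus favoured its negative value, which is no support. MELO3C005246.2 and MELO3C016309.2 also passed the filter only with California libraries counted. What set these libraries apart was not tested.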

How the results depend on the processing

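No paired analysis was possible because the table columns carry no replicate numbers that tie libraries of different groups together. No called difference changed sign under any alternative run. The member list moved with several choices. Of the 50 members, 23 were returned with log2 of reads plus 1, 29 without Uvalde 2019, 29 with group medians, 14 from F39 alone and 11 from TTDV alone, with 5 in the top 50 of each cultivar alone. Leaving out single libraries returned 32 to 49, and the other 5 choices 38 to 47. For the cultivar difference at California, 12 members were called, 23 with sample weights, and 9 to 15 when single libraries were left out. In the 4 other environments 7 were called, 16 with sample weights, 11 without 2 similar libraries (replicate 3 of F39 Uvalde 2019 as labelled, and of TTDV North Carolina), 4 with Uvalde 2019 as labelled added, and 6 to 9 with single libraries left out. For the difference between these contrasts 7 were called, 3 of 37 with the stricter filter (about 111 reads), 14 with sample weights, 3 with voom, and 2 to 8 with single libraries left out. At Weslaco 28 were called, 23 to 33 under other settings and 24 to 29 with single libraries left out. Over all genes the calls at California numbered 2920, 8209 with sample weights, 4444 in the compared groups only, and 1634 to 3572 with single libraries left out. Those in the 4 other environments numbered 2107, 4612 with sample weights and 796 with Uvalde 2019 as labelled. Those for the difference numbered 1477, 6091 with sample weights, 2282 without the 2 similar libraries, and 496 to 1879 with single libraries left out. Of the members called, 5 of 12, 1 of 7, 6 of 7 and 7 of 28 lost their call in at least 1 omission of a library, in the order of the 4 tests above. With 2 or 3 libraries a group, a single library can set a mean, and the weakest members rest on few reads. The causes of these shifts were not tested.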

Other observations

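A part of the members was read in few libraries outside California. Of the 50, 15 had no read in at least 1 of the 29 other F39 and TTDV libraries, and 10 had none in 10 or more of them. The weakest at California were MELO3C010980.2, with 5.57 reads on average, and MELO3C008316.2, with 5.67. MELO3C010980.2 had 0.922, 5.05 and 4.24 reads in TTDV and 3.58, 8.77 and 10.8 in F39 at California, against at most 3.48 in the 29 F39 and TTDV libraries from the other environments, in TTDV Uvalde 2018 replicate 3. MELO3C034657.2, chosen after its values were seen, had 2.77, 5.78 and 3.18 reads in TTDV and 5.72, 8.04 and 21.7 in F39, against at most 6.64 in the same 29 libraries. These 3 genes were read in 6 of 6 California libraries and did not pass the filter on low values, so none of them was tested.

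MELO3C028028.2, chosen after its values were seen, had 30.4, 31.8 and 23.3 reads in TTDV and 37.9, 16.8 and 48.5 in F39 at California. Arizona had none in all 6 libraries of both cultivars, and F39 Uvalde 2018 replicate 2 had 69.3. The 24 Weslaco libraries had at most 13.5. MELO3C014716.2 was in contrast read in every library of the study, as were MELO3C018731.2 and MELO3C029468.2, picked after their values were seen.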
